A study of Mus musculus with 4 samples.

Results

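The DNA methyltransferase genes Dnmt1, Dnmt3a, Dnmt3b and Dnmt3l were followed in mouse embryonic stem cells that were left to differentiate. They were found by gene symbol among the named spots of a spotted array, where 4 of 4 were present, on 10 spots of 32064 and among 14386 genes in all. The cells were of the CGR8 line, an embryonic stem cell line of mouse. Total RNA came from day 0, which the labels call both embryoid bodies and undifferentiated, and from embryoid bodies, the round aggregates formed in hanging drops, at day 3 and at day 10. Each array carried 2 channels, one for the RNA of day 3 or day 10 and the other for the RNA of day 0, and there were 2 arrays for each of day 3 and day 10. The second array of each day is labelled a technical replicate, so the 2 arrays of a day count as 1 replicate, the SDs given here are technical, and no p-value is given. The labels name no treatment, genotype or feeder layer.

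DNA methyltransferases place a methyl group on cytosine, mostly where guanine follows (CpG). Dnmt1 is the maintenance enzyme, which copies the pattern of the parent strand onto the new strand after replication. Dnmt3a and Dnmt3b are the de novo enzymes, which methylate sites that were unmethylated, and Dnmt3l has no catalytic activity of its own and acts as their cofactor. In the mouse, de novo methylation of the genome takes place around implantation, a step that differentiating stem cells are used to study.

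Values are log2 ratios of the 2 channels, centred on the median of each array. No source used here gives the dyes or the channel in the numerator. Signs were left as deposited, and the positive and the negative side do not say which day had more RNA. The 2 arrays of a day were taken to have the same channel in the numerator, which is likewise not stated. Calls, means, SDs and shares of opposite signs all rest on that. The part of a dye effect that repeats on both arrays was not tested. A ratio also gives no level, so genes were not ranked by abundance, and less RNA per cell cannot be told apart from fewer cells with that RNA. A call required a log2 ratio of 1 or more in size (2-fold), with one sign, on both arrays of a day. At day 10, calls on the positive side made up 2.15% of 13199 genes and calls on the negative side 1.39%, and 1.48% were beyond the limit with opposite signs on the 2 arrays. At day 3, the shares were 1.77% and 1.03% of 13707 genes, with 0.744% of opposite signs. The technical SD of a single array was 0.73 for day 10 and 0.62 for day 3. It comes from the differences between the 2 arrays of a day over all genes, and is not the spread across genes. With so few arrays, precision is limited throughout.

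None of the 4 genes was called at day 10, and at day 3 Dnmt3b was called, on the positive side, and the other 3 were not. Because its readings carry the result, the RefSeq window around the one transcription start that the table holds for Dnmt3b is shown here (build GRCm38.p6, chr2:153649199-153649498, plus strand, from 250 bases before to 50 after the start). Capitals mark GC boxes, the letters GGGCGG on either strand, a motif bound by Sp1 and Sp3: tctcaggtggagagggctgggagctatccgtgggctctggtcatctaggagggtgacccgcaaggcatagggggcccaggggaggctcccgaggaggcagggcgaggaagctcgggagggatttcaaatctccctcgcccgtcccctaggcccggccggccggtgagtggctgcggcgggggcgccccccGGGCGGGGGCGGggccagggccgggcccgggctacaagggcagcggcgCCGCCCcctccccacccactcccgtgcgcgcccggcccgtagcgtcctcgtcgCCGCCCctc. This window held 4 GC boxes, counting each start of the motif, and 30 CG dinucleotides. Of 32851 such windows in the mouse table, 35.7% held at least 1 GC box, and the median number of CG dinucleotides was 7. Dnmt3a, Dnmt1 and Dnmt3l have 3 windows each in that table. Those of Dnmt3a held 46, 47 and 18 CG dinucleotides, those of Dnmt1 2, 12 and 33, and those of Dnmt3l 6, 4 and 3. In the same order of windows, GC boxes numbered 6, 7 and 2 for Dnmt3a, 0, 0 and 2 for Dnmt1, and 1, 2 and 0 for Dnmt3l, so Dnmt3a had more than Dnmt3b at 2 of its starts. Dnmt3l therefore stood below the median of all windows at each of its starts, and Dnmt3b above it. These counts describe letters in the reference sequence and say nothing of binding or methylation in these cells.

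Dnmt3b, a de novo methyltransferase, has 2 spots from 1 RefSeq accession, and both gave a value on every array. At day 10 both spots lay near 0. The first read -0.04 on array 1 and -0.46 on array 2, and the second 0.26 and -0.39. The array means, 0.11 and -0.43, were on opposite sides of 0, and the gene mean was -0.16 ± 0.38 (SD of 2 technical arrays), at percentile 39.4 of all genes.

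At day 3 the first spot read 1.08 on array 1 and 1.40 on array 2, and the second spot 1.07 and 1.75. All 4 readings were thus at or beyond 2-fold on the positive side, which held for 1.01% of the 10825 accessions with 2 spots and 4 readings at that day. The array means were 1.07 and 1.58, and the gene mean was 1.32 ± 0.36, or a 2.50-fold ratio of the channels. This mean lay at percentile 98.0 of all genes at day 3. No reading of Dnmt3b at day 10 came within the range of its readings at day 3, which the plot of every spot shows. How common such a separation was among all accessions was not counted, so it is not read as particular to Dnmt3b.

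**Figure D1:**
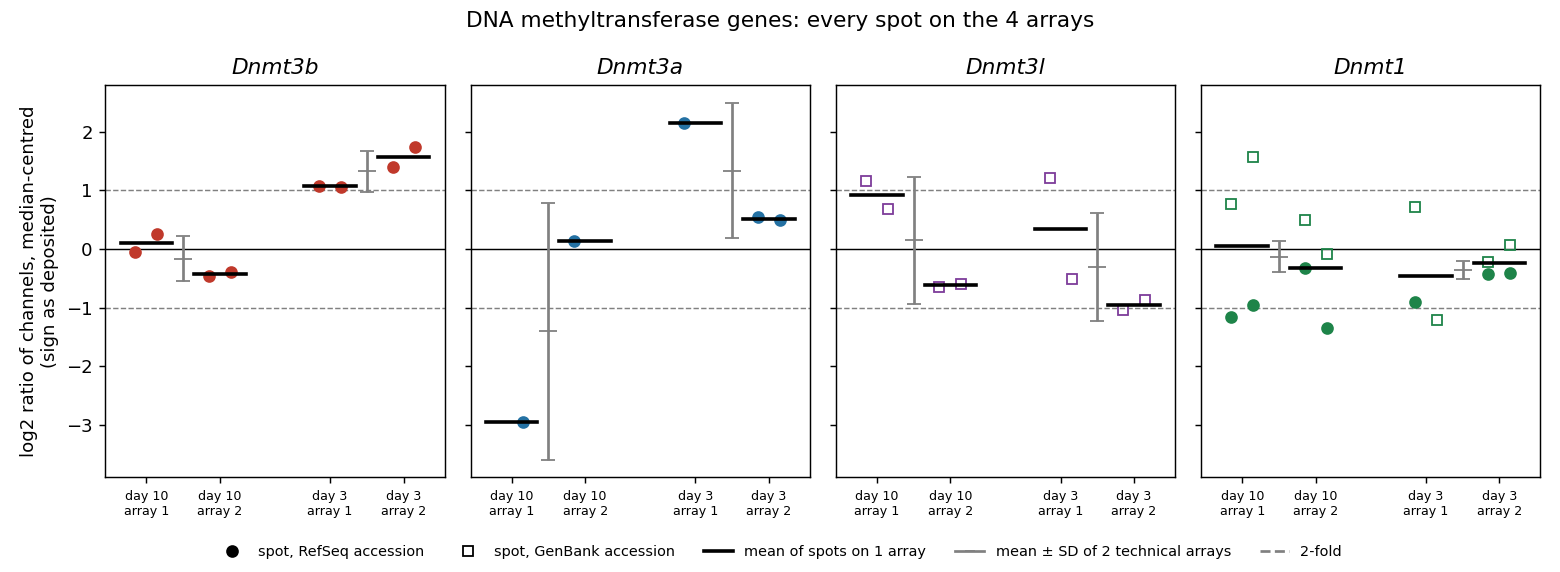
Median-centred log2 ratios of the 4 DNA methyltransferase genes on the day 10 and day 3 arrays, with circles for spots of RefSeq accessions, open squares for spots of GenBank accessions, black bars for array means and grey bars for the mean ± SD of 2 technical arrays. The day 10 readings of Dnmt3b lie between -0.46 and 0.26 and its 4 day 3 readings at or above 1, while the arrays of Dnmt3a and Dnmt3l disagree.

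Agreement between the 2 spots of an accession was measured on each array, since such spots are annotated to the same transcript. No source used here says whether their probes are the same. For Dnmt3b they differed by 0.30 and 0.06 at day 10 and by 0.01 and 0.34 at day 3. Those differences lay at percentiles 33.5, 10.7, 2.07 and 51.2 of all accessions with 2 spots on the same array. The 2 arrays differed by 0.53 for Dnmt3b at day 10 and by 0.50 at day 3, at percentiles 51.1 and 58.9 of all genes. The Dnmt3b arrays therefore differed about as much as those of the middle gene, which does not make Dnmt3b well measured. Across all genes, Pearson's r between the 2 arrays was only 0.215 at day 10 and 0.271 at day 3. By brightness, estimated from the deposited ratios, Dnmt3b ranked at percentile 20.5 at day 10 and 34.5 at day 3. It fell in a brightness group of 3299 genes at day 10 and of 3427 at day 3. The SD of a single array in these groups was 0.94 and 0.67, against 0.73 and 0.62 over all genes. Neither day 10 array of Dnmt3b exceeded the SD of a single array over all genes, and both day 3 arrays did.

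**Figure D2:**
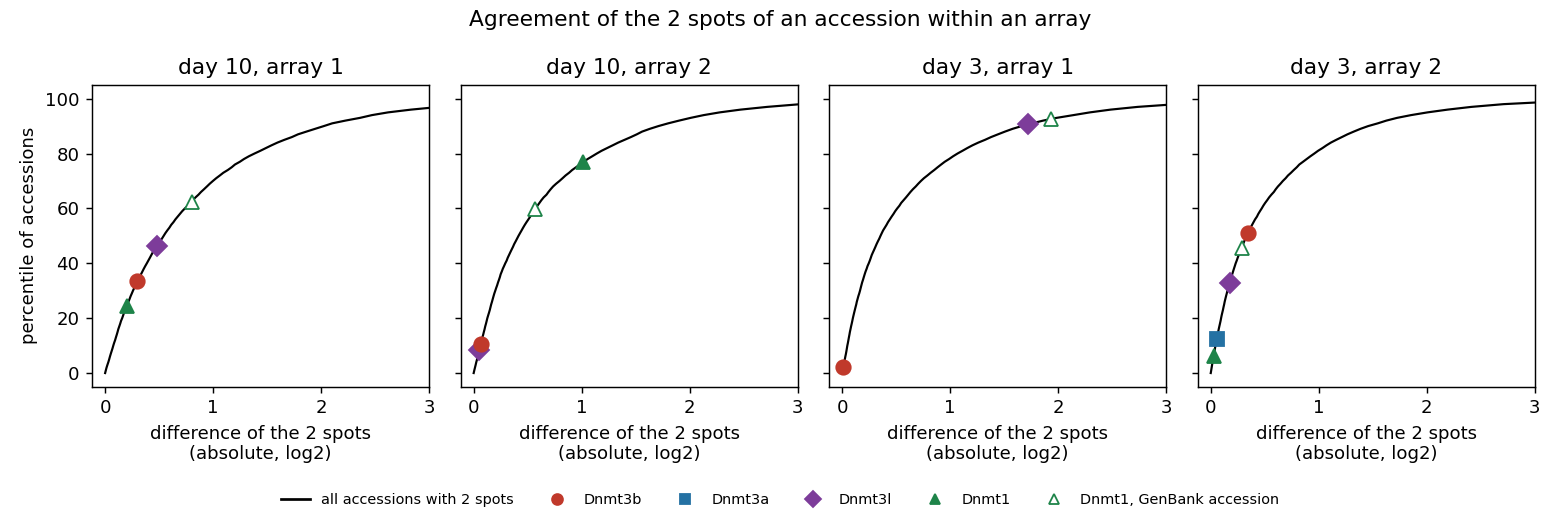
Absolute difference (log2) between the 2 spots of an accession on each array (x axis) against its percentile among all accessions with 2 spots (black line), with the DNA methyltransferase accessions marked. Dnmt3b spots differ by at most 0.34, while the Dnmt3l spots on the first day 3 array differ by 1.72.

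Dnmt3a, the other de novo enzyme, was measured poorly. Its 2 spots gave 5 of 8 possible readings, and no spot had a value on both day 10 arrays. At day 10 the reading was -2.95 for the second spot on array 1 and 0.15 for the first spot on array 2, a mean of -1.40 ± 2.19. That array difference of 3.09 was at percentile 98.6 of all genes, and it compares different spots. By estimated brightness Dnmt3a ranked at percentile 0.73 of all genes at day 10 and at 19.8 at day 3. Such an estimate comes out too low where the whole numbers behind a ratio shared a factor. The ranks of Dnmt3a and Dnmt3b are therefore uncertain. At day 3, array 1 had a single reading of 2.16 and array 2 had 0.55 and 0.49. Both day 3 arrays were on the positive side, as for Dnmt3b, but the second was below the limit, and the mean of 1.34 ± 1.16 was not called. The day 3 mean of Dnmt3a was close to that of Dnmt3b, and with an SD of 1.16 the 2 genes could not be ordered.

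Dnmt3l, the cofactor without catalytic activity, has 2 spots from 1 GenBank accession. At day 10 they read 1.15 and 0.68 on array 1, against -0.64 and -0.59 on array 2. At day 3 they read 1.21 and -0.51 on array 1, against -1.04 and -0.86 on array 2. On the second array of each day both spots were on the negative side within 0.18 of each other, while the first array of each day had a mean on the positive side, 0.92 at day 10 and 0.35 at day 3. The gene means of 0.15 ± 1.08 at day 10 and -0.30 ± 0.92 at day 3 are each smaller than their SD, so neither side could be assigned.

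Dnmt1, the maintenance enzyme, has 2 spots from a RefSeq accession and 2 from a GenBank accession. Averaged over all spots, as for the other genes, it stood at -0.13 ± 0.26 at day 10, with 0.06 and -0.32 on its arrays, and at -0.35 ± 0.16 at day 3, with -0.46 and -0.24. Neither mean was near the limit, and the fold ratios were 1.09 at day 10 and 1.28 at day 3. The average hides a disagreement between the accessions. The RefSeq spots were negative in 7 of 7 readings, with array means of -1.05 and -0.84 at day 10 and of -0.90 and -0.41 at day 3. The GenBank spots had array means of 1.16 and 0.21 at day 10 and of -0.25 and -0.07 at day 3. At day 10 the accessions thus lay on opposite sides of 0 on both arrays, which was the case for 21.6% of the 747 genes with 2 accessions, and at day 3 the array means of both accessions were negative. Single GenBank spots differed widely: at day 10 they read 0.76 and 1.56 on array 1 and 0.49 and -0.08 on array 2, and at day 3 they read 0.72 and -1.22 on array 1 and -0.21 and 0.07 on array 2. The day 3 means of that accession are thus averages of spots on opposite sides of 0, and on array 1 the spots differed by 1.94, at percentile 92.6 of all accessions with 2 spots. Their gap of 1.63 at day 10 was at percentile 90.8 of those genes, and the gap of 0.50 at day 3 at percentile 45.1. No source used here says which part of the transcript either accession's spots detect.

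Gaps between the genes on 1 array do not depend on the centring of that array. Dnmt3b minus Dnmt1 was 0.05 and -0.11 at day 10, against 1.54 and 1.82 at day 3. Dnmt3b minus Dnmt3l was -0.81 and 0.19 at day 10, against 0.73 and 2.53 at day 3. Dnmt3b minus Dnmt3a was 3.05 and -0.57 at day 10, against -1.08 and 1.05 at day 3. With the deposited sign Dnmt3b was thus above Dnmt1 and Dnmt3l in ratio on both day 3 arrays, and with the ratio turned it would be below both. Its order against Dnmt3a turned between the arrays of each day.

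**Figure D3:**
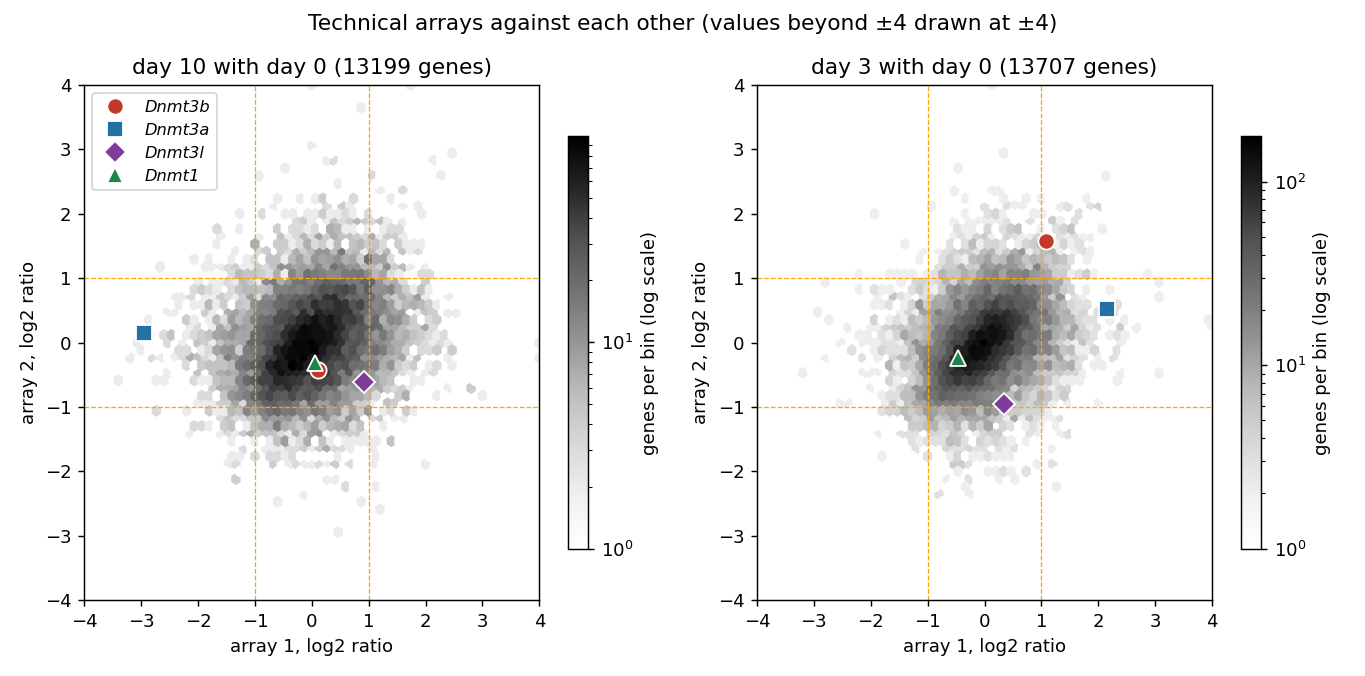
Log2 ratio on array 1 (x axis) against array 2 (y axis) for all genes with both values at day 10 and at day 3, as a grey density, with the 4 DNA methyltransferase genes marked and dashed lines at 2-fold. At day 10 Dnmt3b lies beside Dnmt1 near the centre, and at day 3 it lies to the upper right beyond both lines, with Dnmt3a far from the diagonal at both days.

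Day 10 was set against day 3 through the day 0 RNA, taken as common to the arrays and as standing in the same position of the ratio at both days, neither of which the labels state. Pearson's r across genes, which are not independent replicates, was 0.115 to 0.161 between a day 10 array and a day 3 array. Between the 2 technical arrays it was 0.215 at day 10 and 0.271 at day 3. The arrays of both days are taken to share the day 0 RNA, which alone can give a positive r, so these values do not settle the orientation. For a call, each of the 4 pairings of arrays had to differ by 1 or more with one sign. That was so for 1.82% of 12654 genes with a positive difference and for 1.72% with a negative one. Dnmt3b differed by -1.48 ± 0.52 (day 10 minus day 3, SD combining both pairs of arrays). Its 4 array differences were -0.96, -1.50, -1.47 and -2.00, so 1 of them missed the limit by a small margin and the gene was not called. It was called on the negative side with the arrays brought to a common spread, with the brightness trend removed, or where 1 spot (the one whose arrays differed least) stood for the gene, a choice that favours calls and raised their number over all genes to 600, against 448. The mean lay between -1.75 and -1.22 in the 10 alternatives tried, where those by spot medians and by spots with all values repeat the main value by construction. Spot by spot, the differences of Dnmt3b ran from -2.14 to -0.81, with all 8 on the negative side.

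None of the other 3 genes was called between the days. Dnmt3a differed by -2.74 ± 2.47, with array differences from -5.10 to -0.38, Dnmt3l by 0.45 ± 1.42 and Dnmt1 by 0.22 ± 0.31. For Dnmt1 the sign depended on the accession: the difference was -0.29 with the RefSeq spots and 0.84 with the GenBank spots.

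Genes that work with the methyltransferases were taken from 7 lists with 102 genes, of which 77 were on named spots. Values on both arrays were present for 71 genes at day 10 and for 71 at day 3, not all of them the same genes. At day 10, 1 of 71 was called, on the negative side, and at day 3 likewise 1 of 71, on the negative side. Between the days, 1 of the 65 genes with values on all arrays was called, with a positive difference. These counts are near the shares given above for all genes. The medians over these genes were -0.11 at day 10 and -0.13 at day 3, against -0.01 and 0.01 over all genes.

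Among the partners of the methyltransferases, Dnmt1's recruiter Uhrf1 was not on a named spot. Of the 5 measured, none was called at either day, and their median was -0.59 at day 10 and -0.64 at day 3. Smchd1, a chromatin protein needed for stable X inactivation in the mouse, was the gene called between the days, with a difference of 1.49 ± 0.39. It read 0.80 and 0.53 at day 10 and -1.06 and -0.58 at day 3. Its difference was opposite in sign to that of Dnmt3b. Pcna, the replication clamp to which Dnmt1 binds, was among the 4 uncalled partners, and is named here after its values were seen because its arrays agreed: -0.74 and -0.57 at day 10, and -0.58 and -0.69 at day 3. Such agreement was not particular to Pcna among the uncalled partners.

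For the removal of methyl groups, Tet1, an enzyme that oxidises 5-methylcytosine, stood at -0.07 ± 0.06 at day 10 and at 0.29 ± 0.96 at day 3, where its arrays read 0.96 and -0.39. Tet2 and Tet3 were not on named spots. Of this list 0 of 10 genes was called at day 10 and 0 of 10 at day 3, with medians of 0.20 and -0.04. The methyl-CpG binding proteins and their corepressors had 0 called of 13 at day 10 and 0 of 12 at day 3, with medians of -0.36 and 0.20. Histone marks and recruiting factors had 0 of 11 at day 10 and 0 of 10 at day 3, with medians of -0.11 and -0.03. The regulators of methyltransferase transcription, which include Sp1, Sp3 and Rbl2, had 0 of 8 at day 10 and 0 of 10 at day 3, with medians of -0.11 and -0.19.

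In methyl donor and one-carbon metabolism, 1 of 13 genes was called at day 10 and 1 of 14 at day 3, in both cases Shmt2, the mitochondrial serine hydroxymethyltransferase that feeds one-carbon units into folate. Shmt2 read -1.14 and -2.01 at day 10 (-1.58 ± 0.61), against -1.28 and -1.22 at day 3 (-1.25 ± 0.04). Its 4 readings were on the negative side at or beyond 2-fold, the side opposite to that of Dnmt3b at day 3. The list medians were -0.29 at day 10 and -0.22 at day 3. Germline genes that DNA methylation keeps silent in mouse somatic cells had 0 of 11 called at day 10 and 0 of 10 at day 3, with medians of 0.48 and 0.07. Trdmt1, a relative of the family that methylates transfer RNA, had a single reading, -0.98, at day 10, and 1.75 and -0.77 on the day 3 arrays.

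**Figure D4:**
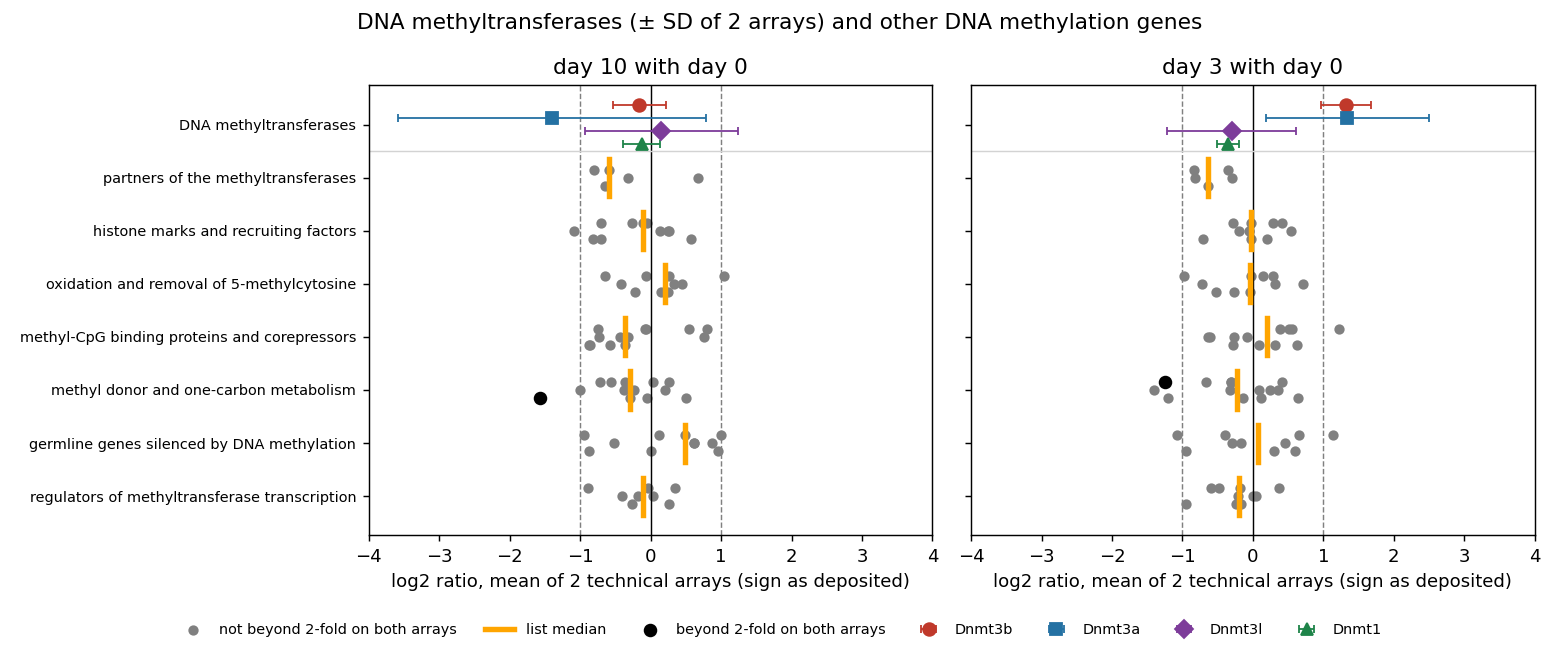
Log2 ratios (mean of 2 technical arrays) at day 10 and day 3 of the 4 DNA methyltransferase genes with their SD, and of the genes in 7 lists of DNA methylation genes as dots, with orange bars for list medians, black dots for genes beyond 2-fold on both arrays and dashed lines at 2-fold. Dnmt3b at day 3 is the methyltransferase beyond 2-fold on both arrays, and Shmt2 is the black dot at both days.

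Markers of pluripotent cells and of other cell types, which the labels do not name, were read on the same scale. Pou5f1, the pluripotency factor Oct4, was at -1.39 ± 0.99 at day 10 and at -0.89 ± 0.15 at day 3, on the negative side on all 4 arrays. Of the pluripotent cell markers 0 of 10 was called at day 10, with 7 means below 0 and a median of -0.24. At day 3, 1 of 11 was called on the negative side, Dppa5a at -2.71 ± 0.04, and 10 of 11 means were below 0, with a median of -0.48. Over all genes 50.7% of means were below 0 at day 10 and 49.5% at day 3. Between the days 1 of 10 of these markers was called, with 7 differences above 0, 3 below and a median of 0.39. It was Fgf4, a growth factor of pluripotent cells, at 1.60 ± 0.41, with 1.51 and 0.99 at day 10 and -0.48 and -0.22 at day 3. At day 10 Fgf4 was thus on the side opposite to Pou5f1. The primed epiblast markers had no call in 6 genes at day 10 (median -0.22) or in 5 at day 3 (median 0.19), and the fibroblast markers none in 7 at either day (medians -0.18 and 0.10). Of the trophoblast markers, 0 of 8 was called at day 10 and 1 of 7 at day 3, Tfap2c at 1.45 ± 0.00, with medians of 0.05 at both days. S phase genes, read because Dnmt1 acts on replicating DNA, had 1 of 10 called at day 10, Tk1 at -1.13 ± 0.10, and 0 of 10 at day 3, with medians of -0.37 and -0.22. The part of a changing mix of cell types in the Dnmt3b result was not tested.

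The genes whose 4 array values were most like those of each methyltransferase were found by the root mean square difference over the 4 arrays, among 11167 genes. Nearest to Dnmt3b were Frat1 at 0.09, Polr2m at 0.19 and Tmx4 at 0.21. Frat1 read 0.17 and -0.54 at day 10, against 0.99 and 1.47 at day 3. Nearest to Dnmt1 were Btg1 at 0.03, Mafk at 0.04 and Tars at 0.06, and nearest to Dnmt3l were Uba1y at 0.13, Gmppa at 0.15 and Atf7 at 0.15. For Dnmt3a the closest were farther off, Gpr35 at 0.40, Nbea at 0.46 and Arr3 at 0.48. The 4 points of such a comparison share the day 0 RNA and the arrays, so the distances describe these arrays alone.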

How the data were processed

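Total RNA of day 3 or day 10 embryoid bodies was hybridised with day 0 RNA on 4 arrays of 2 channels, per the labels. The deposited values were taken as log2 ratios per spot, with base 2 read from the values: on the first day 3 array, 6.40% of values came out as a fraction of whole numbers (denominator 100 at most) in base 2, against 0.0496% in base e and 0.124% in base 10. Scanner, background treatment, dye correction and the reason for missing values: not given in the sources used here. Each array has 46128 spots, and 37471 to 41386 carried a value. The deposited array medians lay between -0.04 and -0.01.

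Spots were named through the platform's annotation (32544 with 1 gene symbol, 588 with several, 12996 with no row), and a match of Entrez IDs to RefSeq (GRCm38.p6) changed 0 symbols. Of the named spots, 480 control spots of 5 accessions were left out. Arrays were centred on their median and spots averaged per gene. The members and the 13 gene lists were chosen with earlier results of these data known. Named genes are the 4 members, up to 4 called genes per list and comparison, 6 genes followed throughout (Trdmt1, Uhrf1, Tet1, Tet2, Tet3, Pou5f1), and the 3 genes most alike to each member. Pcna was added after its values were seen. Brightness was estimated from the smallest pair of whole numbers that yields each deposited ratio, averaged on the log2 scale. These numbers were 10000 or less for 59.3% to 61.9% of readings per array, against 1.45% or less after a random shift, and they are lower bounds where a pair shared a factor. No statistical test of a difference was made, since each day is 1 RNA pair. The code that makes the calls was checked on simulated ratios with known changes. Alternatives were no centring, spot medians, the spot of smallest array difference, a common spread, removal of the brightness trend in 50 bins, limits of 1.5-fold and 4-fold and each array left out. Added after the data were seen were each Dnmt1 accession alone, spots with all values, and the brightest 25% of genes. Promoter windows are from RefSeq (GRCm38.p6). Python 3.11.15, numpy 2.4.6, pandas 2.3.3, scipy 1.17.1 and matplotlib 3.10.9 were used.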

Additional observations from a re-analysis of the deposited data

Results flagged for a closer look

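Among the 25 genes that the naming rule gave values for (Pcna is not one of them), 5 lay on opposite sides of 0 at the 2 days on all arrays, and the difference was not tested. They were Smchd1 at 0.67 at day 10 and -0.82 at day 3, Fgf4 at 1.25 at day 10 and -0.35 at day 3, Arr3 at -1.18 at day 10 and 1.21 at day 3, Polr2m at -0.23 at day 10 and 1.31 at day 3, and Tmx4 at -0.33 at day 10 and 1.14 at day 3. The same held for 14.0% of the 12654 genes read at both days. Polr2m and Tmx4 were named for their likeness to Dnmt3b and Arr3 for its likeness to Dnmt3a, so the sides they take follow from that choice. Smchd1 and Fgf4 were named because they were called between the days, a choice that itself makes opposite sides more likely. The share over all genes is therefore no fair measure for any of the 5. Dnmt3b itself is not among them, because its first day 10 array was at 0.11.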

How the results depend on the processing

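Of 74 alternative values of the 4 genes that kept all arrays, 64 stayed within 1 SD of the technical arrays and 10 moved further, all of them for Dnmt1. Many of the 64 could hardly move, so their number is no measure of stability. Spot medians repeat the main values of Dnmt3a, Dnmt3b and Dnmt3l. Spots with all values repeat those of Dnmt3b and Dnmt3l, and that of Dnmt1 at day 10. Leaving out the centring shifts values only by the small array medians. The only called value, that of Dnmt3b at day 3, kept its side. The other 32 leave out 1 array, where the value is that of the remaining array and within 1 SD by construction. The SDs of Dnmt3a and Dnmt3l ran from 0.92 to 2.47, so staying within 1 SD says little about these genes. Dnmt1 had smaller SDs, so the tally does not rank the genes by stability. Without 1 array, Dnmt3a lay between -2.95 and 0.15 at day 10 and between 0.52 and 2.16 at day 3, Dnmt3l between -0.61 and 0.92 at day 10 and between -0.95 and 0.35 at day 3, and Dnmt1 between -0.32 and 0.06 at day 10 and between -0.46 and -0.24 at day 3. Between the days Dnmt3l lay between -0.31 and 1.22. Dnmt3b stayed between -0.43 and 0.11 at day 10 and between 1.07 and 1.58 at day 3 in 8 alternatives each, and was called at day 3 without centring, with spot medians, with the spot of smallest array difference, with a common spread and with the brightness trend removed. Spot medians and spots with all values repeat the main value of Dnmt3b by construction. Either of its spots alone was bound to be called at day 3, since each reading was at or beyond the limit. Dnmt1 at day 10 was 0.63 with the spot of smallest array difference, -0.94 with the RefSeq spots and 0.69 with the GenBank spots. At day 3 it was -0.60 with the median of the spots, -0.66 with the spot of smallest array difference, -0.66 with the RefSeq spots and -0.16 with the GenBank spots. Its difference between the days was -0.29 with the RefSeq spots, 0.84 with the GenBank spots and 0.54 with spots that have a value on every array. The cause was not tested. The number of genes beyond the limit at day 10, at day 3 and between the days (467, 384 and 448) became 1842, 1598 and 1302 at 1.5-fold, where Dnmt3b was called at day 3 and between the days, and 29, 24 and 45 at 4-fold, where none of the 4 genes was. The spot of smallest array difference gave 755 genes (day 10), 616 (day 3) and 600 (between the days), since it selects for agreement between arrays. The brightest 25% of genes, a smaller set, gave 154 (day 10) and 141 (day 3). For Dnmt3a at day 10 and between the days, the spot of smallest array difference gave no value, since no spot had all readings. No paired analysis was possible because array numbers follow the order of accessions and each day is 1 RNA pair.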
